A study of Mus musculus with 16 samples.

Results

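Microglia of the mouse retina were compared between day 7 and day 4 after optic nerve crush, an injury of retinal ganglion cell axons behind the eye. The comparison used 8 of the 16 libraries of the series: the 4 libraries that the labels place at day 4 and the 4 that they place at day 7. The other 8 libraries, from untreated animals at day 0 and from day 2, entered the model fit for the estimate of spread. Cells came from the retinas of Iba1-EGFP mice, a strain with EGFP driven by regulatory sequence of Iba1 (Aif1), a gene of microglia and of other macrophages, and were isolated by fluorescence-activated cell sorting before bulk RNA sequencing. Mice were 13 weeks old at days 2 and 4, 16 weeks old at day 7 and 15 weeks old at day 0, so a difference of age and a difference of day cannot be told apart between days 4 and 7. All 8 libraries carry the letter M in their titles, whose meaning the labels do not give. The labels do not say that libraries of a day came from separate animals, and the p-values below therefore measure the spread between these libraries, which may be technical.

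Microglia are the resident macrophages of the retina. After injury they leave their surveying state, divide, release cytokines and chemokines and take up debris, and a cell that prepares to divide makes more replication enzymes, ribosomes, chaperones and cytoskeletal proteins. The series title names a receptor, Gpr84, the cytokines Tnf and Il1a and signalling by ROCK kinases, which controls the actin cytoskeleton. Day 7 against day 4 asks which of the transcripts measured at day 4 were lower, and which were higher, 3 days later.

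Values are FPKM, fragments scaled by gene length and by library reads, and those of a day are listed in the order of replicates 1 to 4. A change is the difference of mean log2(FPKM + 1), day 7 minus day 4, from a limma fit with its standard error (SE), and a gene is called when its Benjamini-Hochberg adjusted p is under 0.05. Where a gene was listed at 0 in some libraries, the fitted change depends on the pseudocount of 1. The code that ends each title starts with the same digits for replicates 1 and 2 of every day and with other digits for replicates 3 and 4. This split was used as a batch term, batch 1 and batch 2, although the labels do not say what the code marks. In batch 2 the libraries of days 4 and 7 share the whole code, but in batch 1 those of day 4 carry another code than those of day 7, so code and day cannot be told apart among these 4 libraries. The reads recovered from the table ranged from 9673372 to 15708302 over the 8 libraries. The 20 gene models with the most reads took 14.1% to 17.2% of a library at day 4 and 22.4% to 37.5% at day 7. Nuclear copies of mitochondrial genes took 4.37% ± 1.34 of the reads at day 4 and 11.3% ± 4.26 at day 7 (mean ± SD, n = 4 each), and every day 7 library was above every day 4 library. In day 7 replicate 2, 3 further gene models, Gm10800, Gm10801 and Gm21738, held 8.60% of the reads, against 0.0757% to 0.415% at day 4 and 0.219% to 2.27% in the other day 7 libraries. Since FPKM shares out a fixed total, the counts below are also given after median-of-ratios scaling, which puts the typical gene at the same level in every library. That scaling moved the median change of all tested genes from -0.25 to 0.05. The microglial markers were at high levels: Aif1 measured 416 to 823 FPKM at day 4 and 376 to 961 at day 7, and all 15 genes of the microglial marker list passed the filter on low values with 0 called. Rod photoreceptor genes were present in all 8 libraries too, with a summed level of 2322 to 5156 FPKM for 14 genes at day 4 and 3915 to 7254 at day 7.

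Most called genes were lower at day 7. Of 14795 tested genes, 241 (1.63%) were called, of which 222 (1.5%) were lower and 19 (0.128%) higher. All 4 day 7 libraries lay below all 4 day 4 libraries for 1281 genes (8.66%) and above them for 330 (2.23%). Of the 241 called genes 240 had no such overlap, so a lack of overlap adds nothing to a call. After median-of-ratios scaling 74 genes were called, 42 lower (0.284%) and 32 higher (0.216%), so the share of calls that were lower went from 92.1% to 56.8%, and 56 of the 241 genes were still called. The falls included 138 protein-coding genes, 63 pseudogenes, 10 long noncoding RNAs and 11 small RNAs, and the rises 15 protein-coding genes, 3 long noncoding RNAs and 1 pseudogene. Of all 64 called pseudogenes, 53 were at least 90% identical over at least 50% of their length to 1 of 24 called protein-coding genes, among them Ran, Eif5a, Nop56, Hspa8, Tuba1b, Actg1 and Hnrnpf. No source used here gives the treatment of reads that match more than 1 locus, so a coding gene and its copies cannot be counted as separate falls.

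**Figure D1:**
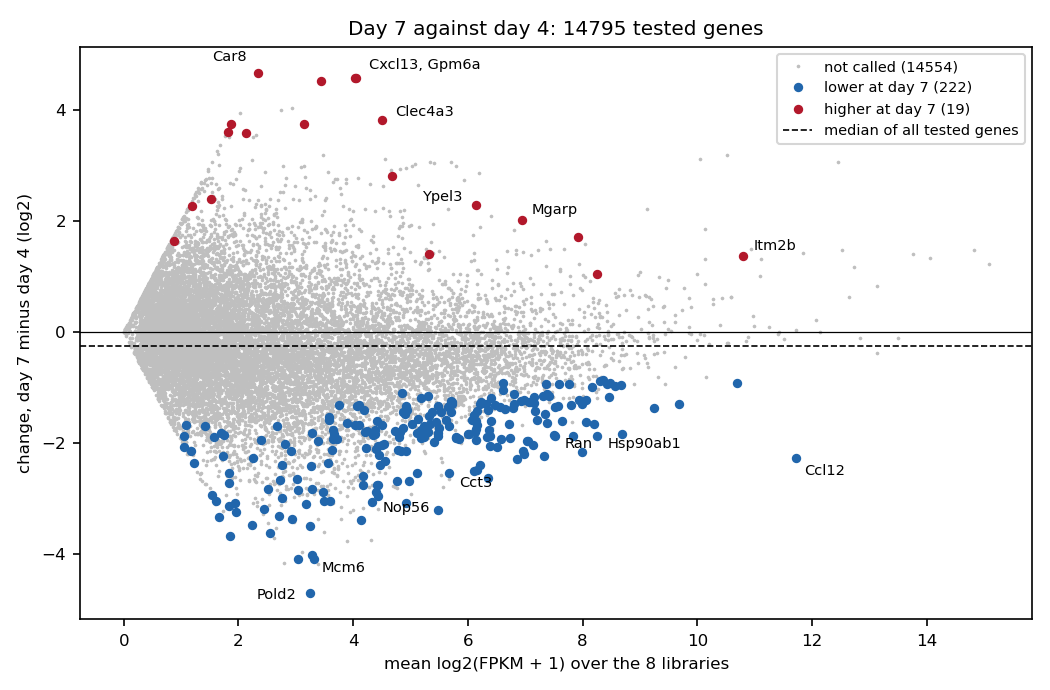
Change from day 4 to day 7 (log2, vertical axis) against mean log2(FPKM + 1) over the 8 libraries for each of the 14795 tested genes. Blue points are the 222 genes called lower, red points the 19 called higher, grey points the genes not called, and the dashed line is the median change of all tested genes, -0.25.

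The calls depend on single libraries and on the use of all 4 days. Leaving out day 4 replicate 2, day 7 replicate 2, day 4 replicate 1, day 4 replicate 4 or day 4 replicate 3 left 62, 81, 84, 117 and 157 called genes, and 56 genes, 49 lower and 7 higher, stayed called whichever of the 16 libraries was left out. The 8 libraries of days 4 and 7 fitted alone gave 6 called genes: Ran, Eif5a, Cct3, Ccl12, Car8 and Gm13461, a processed pseudogene that is 97.3% identical to Ran. With the whole code as the batch term, which the libraries of days 0 and 2 link across the codes, 104 genes were called, 59 of them among the 241, and 18 of the 46 called genes named here kept their call. At an unadjusted p under 0.05 the fit of the 8 libraries had 2491 genes and the fit of all 16 libraries 2410.

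Genes of the DNA replication machinery fell by day 7, among them 3 subunits of the replicative helicase. Mcm2, Mcm6 and Mcm7 belong to the MCM complex that unwinds DNA at the replication fork, and Uhrf1 carries DNA methylation over to the new strand. Mcm7 measured 36.1, 58.8, 20.1 and 59.8 FPKM at day 4 and 2.19, 0.00771, 8.11 and 0.161 at day 7. Mcm6 measured 69.1, 64.2, 7.46 and 58.2 at day 4 and 0.862, 3.30, 0.0455 and 3.01 at day 7. Groups of both genes did not overlap, although day 4 replicate 3 was far below its day for Mcm6. Mcm7 fell by 4.09 ± 0.81 (log2 change ± SE, adjusted p = 0.0226), Mcm6 by 4.01 ± 0.88 (adjusted p = 0.0358), Uhrf1 by 3.61 ± 0.84 (adjusted p = 0.0432) and Mcm2 by 3.49 ± 0.82 (adjusted p = 0.0476). These were the 4 called genes among 36 tested members of the replication list, against 1.5% of all tested genes called lower, and 15 members had no overlap with day 7 lower, against 8.66% of all tested genes. The median change of the list was -1.66, against -0.25 for all tested genes, and it was -1.29 after median-of-ratios scaling. Pold2, a subunit of DNA polymerase delta outside the list, had the largest fitted fall of all called genes, 4.70 ± 0.91 (adjusted p = 0.0192), from 36.8, 60.6, 25.7 and 88.3 FPKM to 7.45, 0.382, 0 and 0.0535. Pcna, the sliding clamp of the fork, had a change of -1.35 ± 0.48 and was not called (adjusted p = 0.174), although its days did not overlap. The calls of Mcm2, Mcm6, Mcm7, Uhrf1 and Pold2 ended with median-of-ratios scaling (adjusted p = 0.127, 0.0891, 0.0549, 0.0973 and 0.0521) and also with limma voom on reads rebuilt from the table. When each of the 16 libraries was left out in turn, these calls ended in 12, 7, 5, 12 and 5 of the 16 fits.

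The promoters of these genes are shown because E2F factors, which switch on replication genes as cells leave G1, are known to bind short words near their start sites. RefSeq promoter windows on GRCm38.p6, 250 bases before to 50 after the start, were searched on both strands for the words TTTCCCGC, TTTCGCGC, TTTGCCGC and TTTGGCGC, and matches are in capitals. Words of the same window could overlap each other.
Mcm6, chr1:128359656-128359955, minus strand: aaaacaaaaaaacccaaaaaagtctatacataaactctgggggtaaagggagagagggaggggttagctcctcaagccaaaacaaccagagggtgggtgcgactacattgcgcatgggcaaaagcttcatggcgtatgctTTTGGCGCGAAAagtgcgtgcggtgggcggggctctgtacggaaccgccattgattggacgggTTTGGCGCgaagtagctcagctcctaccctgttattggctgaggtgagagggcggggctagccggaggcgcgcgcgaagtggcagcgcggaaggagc
Mcm7, chr5:138171834-138172133, minus strand: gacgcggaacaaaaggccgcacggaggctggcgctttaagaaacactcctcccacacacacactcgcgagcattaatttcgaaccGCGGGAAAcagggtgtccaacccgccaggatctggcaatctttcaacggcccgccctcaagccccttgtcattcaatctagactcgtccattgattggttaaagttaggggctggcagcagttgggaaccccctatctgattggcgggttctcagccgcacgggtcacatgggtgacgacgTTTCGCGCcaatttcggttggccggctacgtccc
Uhrf1, chr17:56304063-56304362, plus strand: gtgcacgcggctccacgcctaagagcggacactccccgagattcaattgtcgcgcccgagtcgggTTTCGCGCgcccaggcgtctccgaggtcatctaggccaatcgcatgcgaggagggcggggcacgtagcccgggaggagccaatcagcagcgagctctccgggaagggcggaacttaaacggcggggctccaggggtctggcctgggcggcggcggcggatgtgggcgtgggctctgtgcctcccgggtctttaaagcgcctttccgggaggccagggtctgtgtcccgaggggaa
Mcm6 held 3 matches, Mcm7 held 2 and this start of Uhrf1 held 1. The other listed starts of Mcm7 and Uhrf1, the window of Mcm2 and both windows of Pold2 held none of these words. At least 1 word stood in 13 of the 38 promoters of the replication list (34.2%), in 14 of the 135 promoters of protein-coding genes called lower (10.4%), in 434 of the 11301 promoters of tested genes (3.84%) and in 744 of all 32851 promoters in the table (2.26%). The E-box word CACGTG, searched in the same windows, stood in 5 of the 38 promoters of the replication list (13.2%), in 23 of the 135 of genes called lower (17.04%), in 1121 of the 11301 of tested genes (9.92%) and in 2349 of all promoters (7.15%). A match describes the letters only and is not a bound site.

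Genes of chromosome segregation gave a mixed picture. Nusap1, which bundles spindle microtubules, measured 26.1, 22.8, 14.2 and 17.2 FPKM at day 4 and 3.90, 2.33, 0 and 0.150 at day 7, and Spc24, a part of the kinetochore, measured 17.9, 18.3, 5.77 and 5.23 and then 0, 0.0804, 1.79 and 0. Neither gene overlapped between the days. Nusap1 fell by 3.30 ± 0.56 (adjusted p = 0.0095) and Spc24 by 3.08 ± 0.51 (adjusted p = 0.00836), and both were still called after median-of-ratios scaling and without any single library. They were the only called members of 41 tested in the mitosis list, against 1.5% of all tested genes called lower. The median change of that list was -1.20. Within batch 1 the list median was -2.38, and within batch 2 it was 0.03. At day 0 the highest library of Nusap1 measured 0.145 FPKM and the highest of Spc24 0.0382.

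Genes of ribosome assembly and protein folding fell as well. Nop56, a core protein of the particles that guide ribosomal RNA methylation, measured 48.0, 50.2, 60.9 and 71.6 FPKM at day 4 and 12.4, 6.11, 5.73 and 2.7 at day 7, with no overlap. It fell by 3.05 ± 0.42 (adjusted p = 0.00339). Gar1, of the particles that guide pseudouridine formation, fell by 3.12 ± 0.64 (adjusted p = 0.0262), Nolc1, a nucleolar chaperone of these particles, by 2.88 ± 0.67 (adjusted p = 0.0447), and Ncl, the nucleolar protein nucleolin, by 1.44 ± 0.30 (adjusted p = 0.0274). These 4 of 40 tested members of the ribosome biogenesis list were called, all lower, against 1.5% of all tested genes, and 14 members did not overlap, all lower, against 8.66%. The median change of the list was -1.49, and after median-of-ratios scaling it was -1.17 with Nop56 still called. The ribosomal proteins themselves had 0 called of 77, and their median change of -0.41 became 0.03 after median-of-ratios scaling.

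Chaperones held the most calls of any list. Cct3, a subunit of the chaperonin that folds actin and tubulin, measured 109.8, 111, 122 and 146 FPKM at day 4 and 13.7, 16.0, 22.1 and 33.7 at day 7. The highest day 7 library was thus far below the lowest day 4 library, and Cct3 fell by 2.53 ± 0.30 (adjusted p = 0.00178). Hspd1, the mitochondrial chaperonin, measured 93.5, 113, 149.5 and 204 at day 4 and 26.6, 20.9, 3.5 and 16.0 at day 7 and fell by 3.21 ± 0.54 (adjusted p = 0.0092). Hsp90ab1, the constitutive cytosolic Hsp90, measured 537, 649, 660.0 and 495 at day 4 and 185, 65.4, 231 and 225 at day 7 and fell by 1.87 ± 0.30 (adjusted p = 0.0071). Cct8, another chaperonin subunit, fell by 1.64 ± 0.26 (adjusted p = 0.0071) and Stip1, which links Hsp70 to Hsp90, by 1.91 ± 0.37 (adjusted p = 0.0187). In all, 11 of 29 tested members were called, all lower, against 1.5% of all tested genes, and 16 did not overlap, all lower, against 8.66%. The median change was -1.22, and after median-of-ratios scaling it was -0.77 with 4 members called lower.

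Protein breakdown and the cytoskeleton followed the same direction with smaller sizes. The proteasome list had 5 of 36 tested members called, all lower, against 1.5% of all tested genes, and a median change of -0.74. Psmc4, an ATPase of the proteasome cap, measured 149, 137, 148 and 124 FPKM at day 4 and 63.2, 43.5, 75.7 and 45.9 at day 7, without overlap, and fell by 1.31 ± 0.25 (adjusted p = 0.0199). Psma5 and Psmb5 of the core fell by 1.65 ± 0.33 and 1.26 ± 0.29 (adjusted p = 0.0249 and 0.042), and Psmd3 of the cap by 2.59 ± 0.58 (adjusted p = 0.037). The actin cytoskeleton list had 5 of 38 called, all lower, against the same 1.5%, with a median change of -0.79. Actb, cytoplasmic beta-actin, measured 1195, 1303, 1383 and 1288 at day 4 and 510.1, 337, 717 and 609 at day 7 and fell by 1.30 ± 0.27 (adjusted p = 0.0272). Pfn1, which feeds actin monomers to growing filaments, fell by 1.36 ± 0.26 (adjusted p = 0.018), Arpc4, of the branching complex Arp2/3, by 1.41 ± 0.27 (adjusted p = 0.0169), and Coro1a, an actin-binding protein of leukocytes, by 1.66 ± 0.37 (adjusted p = 0.0377). None of the members of these lists was called after median-of-ratios scaling, and their medians were then -0.29 for the proteasome and -0.37 for actin cytoskeleton genes.

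The 2 protein-coding genes with the smallest adjusted p among the falls were outside these lists and were singled out after their values had been seen. Ran, the GTPase that drives transport through nuclear pores, measured 318, 312, 370.1 and 388 FPKM at day 4 and 89.7, 73.9, 125 and 97.9 at day 7. Eif5a, a translation factor that carries the modified amino acid hypusine, measured 721, 758, 821 and 820.4 at day 4 and 199.7, 145, 261 and 304 at day 7. For both genes the 4 values of a day lay close together and the days were far apart. Ran fell by 1.85 ± 0.20 and Eif5a by 1.83 ± 0.20 (adjusted p = 0.00117 each), and both were still called after median-of-ratios scaling. Their levels at day 0 were 62.3 to 111 FPKM for Ran and 146 to 267 for Eif5a. Day 7 minus day 0 was 0.29 for Ran (adjusted p = 0.57) and 0.14 for Eif5a (adjusted p = 0.82), and day 4 minus day 0 was 2.15 and 1.96 (adjusted p = 0.00014 and 0.00018). The comparisons with day 0 share libraries with the main one.

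**Figure D2:**
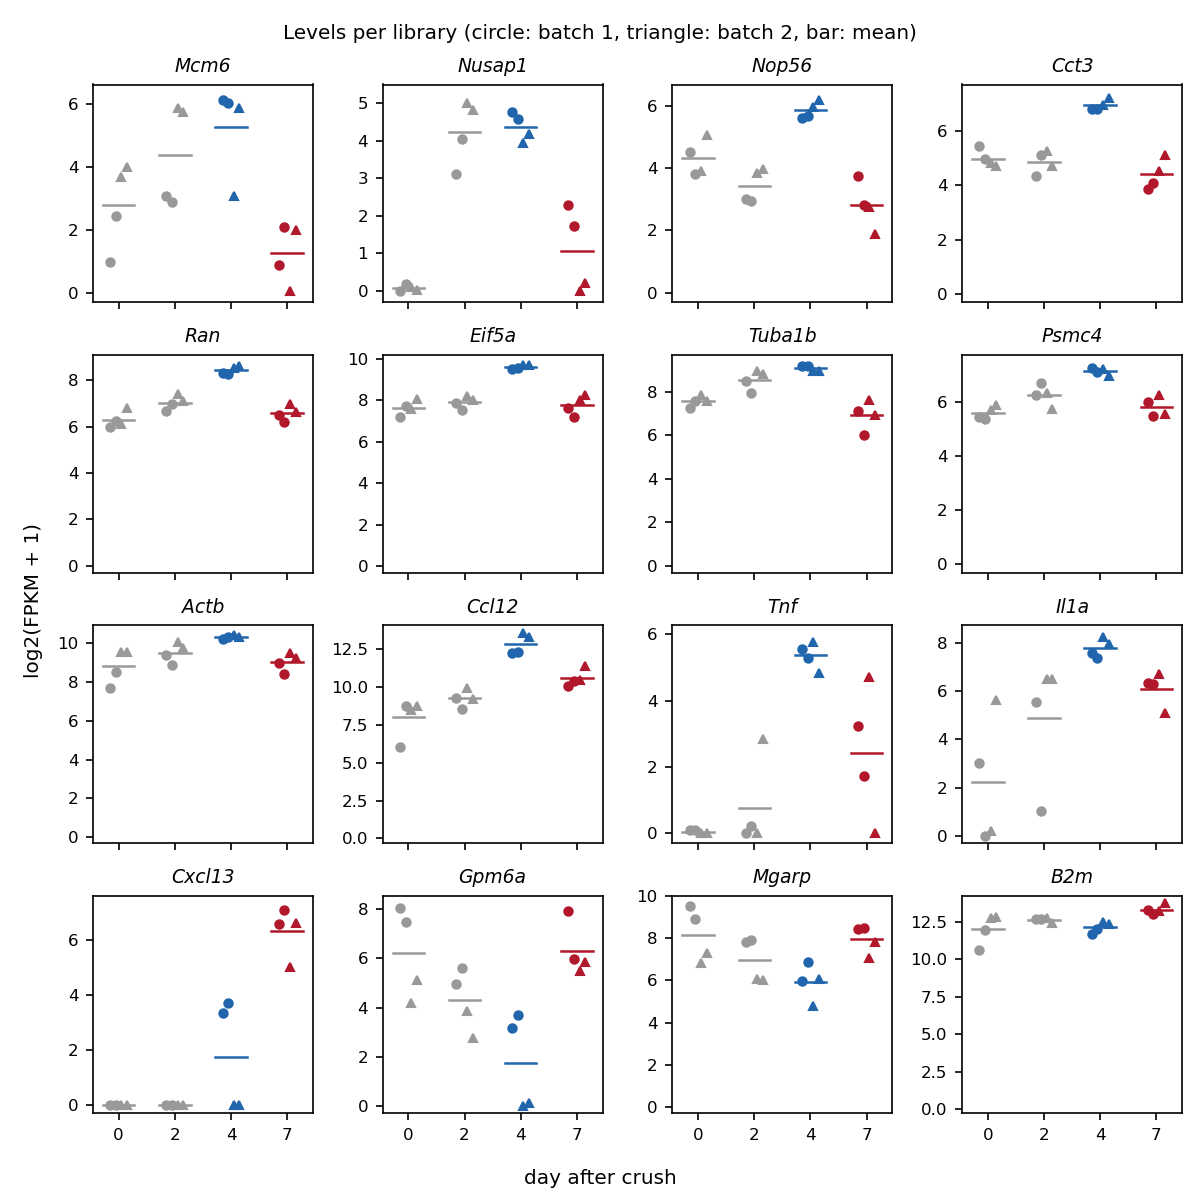
Level of 16 genes as log2(FPKM + 1) (vertical axis) in each of the 16 libraries by day after crush (horizontal axis). Circles are libraries of batch 1 and triangles those of batch 2, bars are means of 4 libraries, blue marks day 4 and red day 7. Ran and Eif5a show tight groups at day 4 and day 7, while Mcm6 and Tnf spread widely at one of these days.

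Lists with metabolic genes held at most 1 called gene each, against 1.5% of all tested genes called lower. Psat1, an enzyme of serine synthesis that belongs to the integrated stress response list, measured 33.9, 46.6, 26.4 and 28.2 FPKM at day 4 and 9.77, 0.462, 0 and 0 at day 7 and fell by 4.09 ± 0.88 (adjusted p = 0.0324). It was the only called member of 18 tested there, and the list median was -1.0. Adsl, an enzyme of purine synthesis, fell by 3.36 ± 0.59 (adjusted p = 0.0111). Ldha, which turns pyruvate into lactate, fell by 1.17 ± 0.26 (adjusted p = 0.0349) as 1 of 18 glycolysis genes, and Atp5g1, of the mitochondrial ATP synthase, fell by 1.09 ± 0.25 (adjusted p = 0.0413) as 1 of 58 oxidative phosphorylation genes. The 1 call of 58 was close to the share of all tested genes called lower. The median changes of the glycolysis and oxidative phosphorylation lists were -0.46 and -0.30, against -0.25 for all tested genes. After median-of-ratios scaling Psat1, Ldha and Atp5g1 were not called (adjusted p = 0.0767, 0.19 and 0.233), while Adsl was (adjusted p = 0.0492). The list medians were then -0.56 for the integrated stress response, -0.10 for glycolysis and 0.15 for oxidative phosphorylation.

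Inflammatory genes split between 1 fall and 1 rise. Ccl12, a chemokine that draws monocytes, measured 4923, 5119.7, 12112 and 9942 FPKM at day 4 and 1089, 1370.1, 1411 and 2668 at day 7. No day 7 library reached the day 4 range, and Ccl12 fell by 2.27 ± 0.43 (adjusted p = 0.0169). After median-of-ratios scaling its change was -1.82 and it was not called (adjusted p = 0.0726). Its level at day 7 was still above day 0, where it measured 65.6, 420.4, 350.3 and 432 FPKM, by 2.59 (adjusted p = 0.022). Cxcl13, a chemokine that draws B cells, moved the other way: it measured 9.14, 12, 0 and 0 at day 4 and 96.4, 139, 31.4 and 97.4 at day 7, and it was listed at 0 in all 4 libraries of day 0. Cxcl13 rose by 4.58 ± 0.67 (adjusted p = 0.00504), stayed called under median-of-ratios scaling, and was higher in both batches, by 3.34 and 5.82. Of the 24 tested members of the cytokine list these were the only calls, against 1.5% of all tested genes called lower and 0.128% called higher. The list median was -0.47, or -0.12 after median-of-ratios scaling.

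The genes named in the title were not called between days 4 and 7. Tnf measured 46.4, 38.2, 53.6 and 27.5 FPKM at day 4 and 8.43, 2.27, 25.2 and 0 at day 7, so every day 7 library was lower, with a change of -2.95 ± 0.86 (adjusted p = 0.0986). Il1a measured 191, 165, 299 and 245 at day 4 and 80.9, 77.5, 103 and 32.7 at day 7, again without overlap, with a change of -1.68 ± 1.15 (adjusted p = 0.501). Each SE draws on all 16 libraries, so the missing call of Il1a need not reflect the spread at days 4 and 7. Gpr84, a receptor for medium-chain fatty acids, measured 149, 107, 90.6 and 163 at day 4 and 17.4, 39.5, 104 and 60.8 at day 7, where replicate 3 reached into the day 4 range, with a change of -1.42 ± 0.43 (adjusted p = 0.114). Rhoa measured 81.6, 88.4, 92.0 and 84.0 at day 4 and 50.8, 34.0, 79.9 and 62.5 at day 7, lower in all 4 libraries, with a change of -0.66 ± 0.25 (adjusted p = 0.194). Rock1 and Rock2 had changes of -0.13 ± 0.43 and -0.74 ± 0.65 (adjusted p = 0.915 and 0.616) at levels below 5 FPKM, and the change of Rock1 was 0.20 after median-of-ratios scaling. Other cytokines of activated microglia had negative changes without a call: -3.24 for Il1b (adjusted p = 0.111), -1.53 for Ccl2 (adjusted p = 0.396), -1.02 for Ccl3 (adjusted p = 0.425) and -0.93 for Ccl4 (adjusted p = 0.515). Il1b measured 23.4 and 23.3 FPKM at day 4 and 24.0 and 17.8 at day 7 in batch 1, and 99.4 and 82.1 at day 4 and 0.0371 and 0.266 at day 7 in batch 2. The difference of its change between the batches did not pass (adjusted p = 0.104).

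Among the largest rises were genes of some other retinal cell types. Gpm6a, a membrane glycoprotein of neurons, measured 7.90, 11.8, 0 and 0.0990 FPKM at day 4 and 242, 62.7, 43.9 and 57.4 at day 7 and rose by 4.58 ± 0.51 (adjusted p = 0.00117). Car8, a carbonic anhydrase-related protein, measured 0.0444, 0, 0 and 0 at day 4 and 20.8, 37.9, 18.9 and 24.7 at day 7 and rose by 4.67 ± 0.70 (adjusted p = 0.00579). Pcp2, a marker of rod bipolar cells, rose by 4.53 ± 0.90 (adjusted p = 0.0226), and 51% of its model overlaps Pet100. At day 0 these genes measured 17.4 to 263, 0 to 28.9 and 3.65 to 117 FPKM, so their day 7 levels overlapped those of untreated retinas. Car8 and Pcp2 were the 2 called members of 14 tested bipolar cell genes, against 0.128% of all tested genes called higher. The median change of that list was 1.10, and its summed level ranged from 20.3 to 95.8 FPKM at day 4 and from 144 to 473 at day 7. Mueller glia genes had 0 of 13 called with a median of 1.13, and rod genes 0 of 14 with a median of 0.82. Within batches 1 and 2 these medians were 1.84 and 0.16 for Mueller glia and 0.09 and 1.55 for rods. The mean summed level of Mueller genes was 2795 FPKM at day 4 and 2830 at day 7. The Mueller list shares a member with the list of disease-associated microglia genes, so this sum is not of Mueller glia alone. Cone and ganglion cell genes had medians of -0.45 and -0.22, and amacrine and horizontal cell genes of 0.40, with 0 called. With the mean of the bipolar and Mueller lists in each library as a covariate, added after seeing the data, 0 genes were called by limma and 1901 had an unadjusted p under 0.05. In that fit Ran had a change of -1.86 and Cct3 of -3.05 (adjusted p = 0.0517 each). Car8, itself a member of the bipolar list, had a change of 2.93 (adjusted p = 0.181). The mean log2(FPKM + 1) of the bipolar list was 0.463 to 1.746 at day 4 and 1.956 to 3.947 at day 7. That of the Mueller list was 2.061 to 2.648 and 2.807 to 4.985. Since neither overlapped, the covariate largely stands in for the day, and the loss of calls cannot tell them apart. The part of these cells in the other results was not tested further. In bulk samples, fewer cells of a type and less RNA per cell cannot be told apart.

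Other rises included membrane proteins of myeloid cells. Clec4a3, a C-type lectin receptor of myeloid cells, measured 6.81, 25.0, 5.57 and 0 FPKM at day 4 and 48.3, 114, 91.0 and 101 at day 7 and rose by 3.82 ± 0.78 (adjusted p = 0.0272). Ms4a4c, of the membrane-spanning MS4A family, measured 3.81, 5.96, 13.9 and 16.2 at day 4 and 71.1, 52.2, 47.7 and 108 at day 7 and rose by 2.80 ± 0.60 (adjusted p = 0.0324). Ms4a4c also stands in the list of monocyte genes, where it was the only call among 7 tested members, against 0.128% of all tested genes called higher. That list had a median change of 0.46, or 0.91 after median-of-ratios scaling, and a summed level of 385 to 1808 FPKM at day 4 and 1036 to 1800 at day 7, while its member Ccr2 stayed under 1 FPKM in all 8 libraries. The part of monocytes in these rises was not tested. Qpct, which forms pyroglutamate at the ends of peptides and chemokines, rose by 3.74 ± 0.64 (adjusted p = 0.0104), from 2.26, 9.44, 0 and 0 to 33.7, 83.6, 18.1 and 18.2. Ypel3 rose by 2.29 ± 0.36 (adjusted p = 0.00648) and Mgarp, a mitochondrial protein, by 2.02 ± 0.34 (adjusted p = 0.0092). Dusp28 was listed at 0 in all 4 libraries of day 4 and measured 7.69, 17.3, 24.5 and 7.18 at day 7. The values of each of these genes did not overlap between the days, which the rule that named them required. All 6 were still called after median-of-ratios scaling.

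Interferon-response and class I antigen presentation genes stood on the higher side without a call. The interferon list had 0 of 51 tested members called and a median change of 0.58, and 10 members had all day 7 libraries above all day 4 libraries while 0 had the reverse, against 2.23% and 8.66% of all tested genes. Ifi27l2a, an interferon-induced gene, measured 454, 812, 658 and 494 FPKM at day 4 and 1591, 1259, 2496 and 4080.4 at day 7, a change of 1.85 ± 0.49 (adjusted p = 0.074). Oas3, which senses double-stranded RNA, had a change of 2.59 (adjusted p = 0.0586), Ifit3 of 2.09 (adjusted p = 0.157), Ifit1 of 2.1 (adjusted p = 0.235) and Usp18, which damps interferon signalling, of 1.24 (adjusted p = 0.183). Ifit3 at day 4 measured 93.4 and 106 in batch 1 but 14.5 and 17.1 in batch 2, and the list median was 0.12 within the first and 1.03 within the second. B2m, the light chain of class I molecules, measured 3295, 4237, 5649 and 5315 at day 4 and 9994, 8219, 9606 and 13750.4 at day 7, a change of 1.17 ± 0.31 (adjusted p = 0.0729). After median-of-ratios scaling B2m, H2-D1, H2-Q7 and H2-T23 of the 20 class I genes and Ifi27l2a of the interferon list were called higher (adjusted p = 0.0399, 0.0492, 0.0441, 0.0492 and 0.046).

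**Figure D3:**
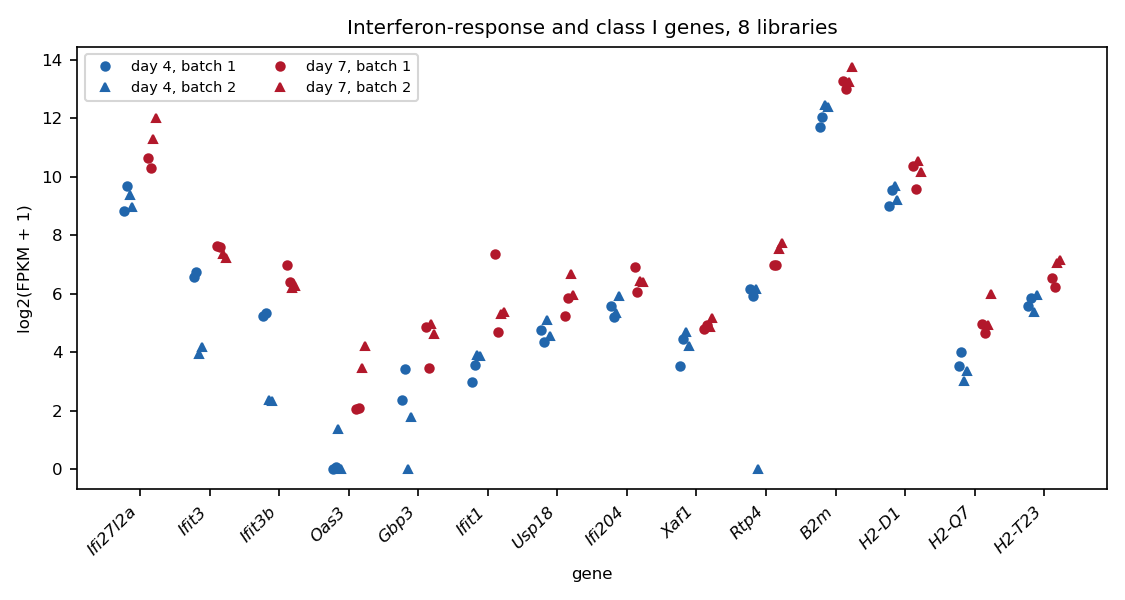
Level as log2(FPKM + 1) of the 10 interferon-response genes whose days did not overlap and of 4 class I genes (horizontal axis) in the 8 libraries. Blue marks day 4, red day 7, circles batch 1 and triangles batch 2. B2m measured 3295 to 5649 FPKM at day 4 and 8219 to 13750.4 at day 7 without overlap, while H2-D1 overlapped.

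Microglial state genes had no calls with FPKM as deposited. Disease-associated microglia genes, a set switched on around dying neurons, had 0 of 32 called with a median of 0.29. After median-of-ratios scaling that median was 0.73, and B2m, which the class I list also holds, was called higher. Homeostatic genes had 0 of 30 called with a median of -0.38, which became 0.05 after that scaling, again with 0 called. In the first set all day 7 libraries lay above all day 4 libraries for 5 of 32 members and below them for 1. The shares over all tested genes were 2.23% and 8.66%. Cst7, an inhibitor of cysteine proteases, was among those above, with a change of 1.03 (adjusted p = 0.457). Lpl, a lipase, was the 1 below, with a change of -1.98 (adjusted p = 0.19). Among homeostatic genes Tmem119 had a change of -1.37 (adjusted p = 0.122) and the fractalkine receptor Cx3cr1 of -0.91 (adjusted p = 0.0931). Cx3cr1 measured 249.8, 264, 296 and 263 FPKM at day 4 and 149, 113, 144 and 166 at day 7, and these values did not overlap. Border-associated macrophage genes had 0 of 8 called, a median of -1.40 and a summed level of 105 to 385 FPKM at day 4 and 20.8 to 93.1 at day 7. The medians of the pathway lists, with both scalings, are in the plot of list medians.

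**Figure D4:**
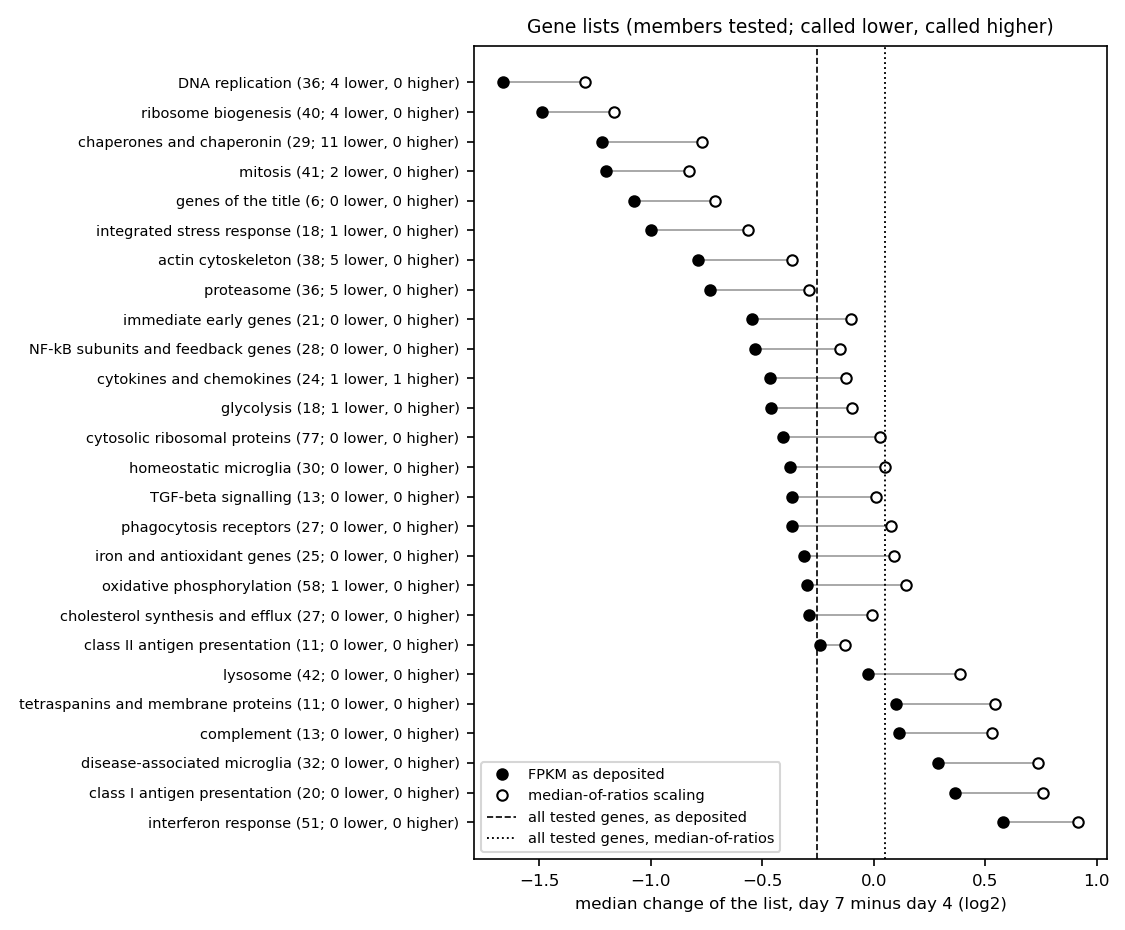
Median change from day 4 to day 7 (log2, horizontal axis) of each pathway list, with FPKM as deposited (filled) and after median-of-ratios scaling (open). Row labels give the members tested and the number called lower and higher with FPKM as deposited, and vertical lines mark the medians of all tested genes, -0.25 (dashed) and 0.05 (dotted). DNA replication and ribosome biogenesis lie furthest to the left and the interferon response furthest to the right under both scalings.

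Within each batch the called genes kept their direction. All 241 had the same sign in batch 1 and in batch 2, with median changes of -1.83 and -1.68 for the falls and 2.69 and 3.15 for the rises. Direction was part of what made a gene called, so this describes the spread of sizes. The test of a difference between batches called 0 of the 14795 genes, and each batch fitted alone, with 2 libraries a day, called 0 genes, with 2447 and 1378 at an unadjusted p under 0.05. Cct3 changed by -2.82 and -2.24 and Tuba1b, an alpha-tubulin, by -2.62 and -1.68 in the 2 batches. Hspd1 changed by -2.08 and -4.33.

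**Figure D5:**
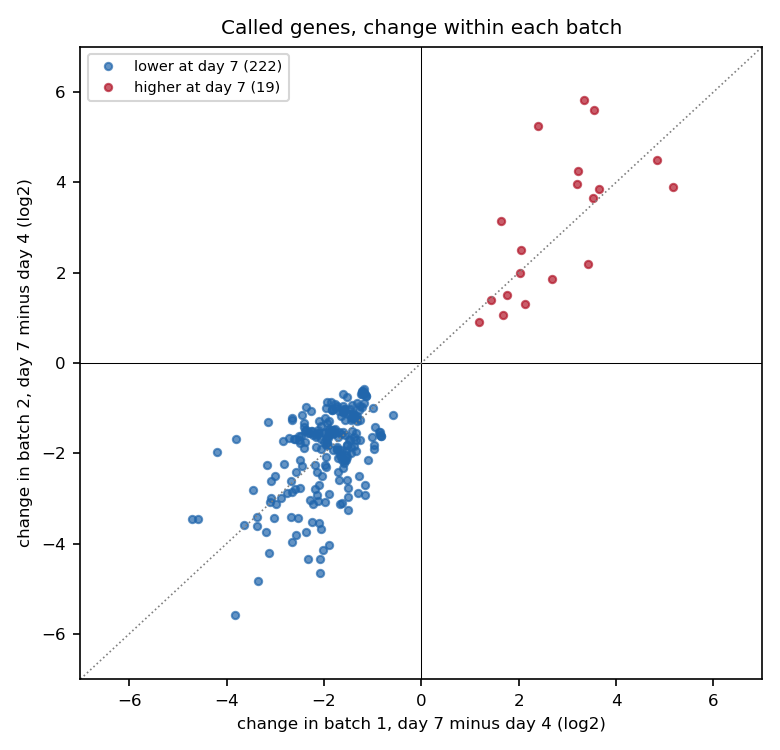
Change from day 4 to day 7 (log2) of the 241 called genes in batch 1 (horizontal axis) and batch 2 (vertical axis), from a model in which each batch has its own change. Blue points are called lower and red points called higher, and the dotted line marks equal changes. All points lie in the lower left or upper right field.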

How the data were processed

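The deposited table holds FPKM for 55385 genes in 16 libraries. Per the submitters' processing notes, the authors mapped reads with STAR 2.7.2b and counted them with featureCounts 1.6.1, on build GRCm38.p6 (mm10). Per the labels' protocols, amplified cDNA went into Nextera XT libraries, which keep no strand, so reads of overlapping genes cannot be told apart. FPKM times gene length came out in steps of 0.01 read (tolerance 0.02), which gave the reads of each library. From 47.4% to 63.8% of values above 0 were whole reads, so the values were tested as FPKM and not as counts. Reads were amplified without molecular identifiers and do not count single molecules. Since every 1 of the 37 mitochondrial genes has a value of 0 throughout, a 0 is given only as listed at 0.

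The 14795 genes that reached 1 FPKM in 4 or more libraries were fitted with limma 3.58.1 in R 4.3.3 on log2(FPKM + 1): a mean per day over all 16 libraries, so that the 4 days share an estimate of spread, the batch, and eBayes with a trend. Tests were two-sided and adjusted with the Benjamini-Hochberg method over all tested genes. This scale understates the change of low genes. Pseudogenes were compared with called coding genes by blastn on GENCODE M21 transcripts.

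Named genes are those of the title, the 12 largest falls and rises (called, 5 FPKM or more on average in the higher day, no overlap), up to 4 members of each pathway list and 2 of each marker list. Outside this rule, Pcna, Cct8, Hsp90ab1, Ran, Eif5a, Ccl2, Ccl3, Ccl4, Ifit1, Usp18, Cst7 and the genes of groups described last were singled out after their values had been seen, as were the promoter words. The members and the lists were chosen with earlier results of these data known. The alternatives changed the samples, batch, block, pseudocount, filter, scaling, variance model and libraries. A gene of the marker lists is not reported here and was left out of their counts and sums.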

Additional observations from a re-analysis of the deposited data

Results flagged for a closer look

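In 7 of the 140 groups of 4 libraries looked at, the 70 named genes at each of the days 4 and 7, a single library lay far from the other 3 on the log2(FPKM + 1) scale by Dixon's test. Chance flags about 1 in 20 groups. Mcm6 measured 7.463 FPKM in day 4 replicate 3, far below the other day 4 libraries. Stip1 at 43.81 FPKM, Pold2 at 7.452 and Psat1 at 9.771 were highest in day 7 replicate 1, the library nearest to day 4 for these genes. Spc24 measured 1.788 FPKM in day 7 replicate 3, against at most 0.0804 in the other day 7 libraries. Oas3 measured 1.586 FPKM in day 4 replicate 3, and Car8 measured 0.04438 FPKM in day 4 replicate 1 and was listed at 0 in the others. The days of all 7 genes did not overlap.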

How the results depend on the processing

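The count of calls depended on most settings, while none of the 46 called genes named here changed direction under any of them. Called genes, with the lower and higher ones, numbered 241, 222 and 19. They were 6, 5 and 1 with the 8 libraries of days 4 and 7 alone, 104, 76 and 28 with the full title code as batch, 63, 56 and 7 with no filter on low values (more genes tested), 74, 42 and 32 with median-of-ratios scaling, 139, 125 and 14 without nuclear mitochondrial copies in the scaling, 147, 114 and 33 with limma voom on rebuilt reads, and 147, 135 and 12 without a trend in eBayes. With the replicate block they were 152, 140 and 12, of which 149 were among the 241. Same-numbered libraries of the days did not deviate together (correlations of -0.03 to 0.05, best partner its own number for 1 of 4). Day 7 replicates 1, 2 and 4 were nearest to a day 4 library of their own batch, and replicate 3 to day 4 replicate 2, of the other batch. The check thus recovered the shared batch only in part, and it cannot exclude that the numbers pair the libraries. Batch 1 alone and batch 2 alone gave 0, 0 and 0, with 2447 and 1378 genes at an unadjusted p under 0.05. Without a batch term 9 genes were higher, and with a filter of 5 FPKM 29 were. A pseudocount of 0.1 or 5 gave 194 or 351 called genes, within 1.5 times. Leaving out each library in turn gave 62 to 256 called, 54 to 235 lower and 8 to 32 higher genes, with the fewest without day 4 replicate 2 and 32 higher without day 0 replicate 1. Without day 4 replicate 1 or 4 or day 7 replicate 2, the higher genes were 9, 10 and 9. Of 2 settings added after seeing the data, scaling to protein-coding reads gave 122, 108 and 14. The other, the bipolar cell and Mueller glia covariate, did not overlap between days 4 and 7 and gave 0, 0 and 0. The cause of these differences was not tested. The 4 libraries a day limit the precision.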

Other observations

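Some groups of genes that the lists did not hold were put together after the values had been seen, and they are given as a description. For polyamines, small positively charged molecules of dividing cells, the enzyme that makes spermidine and the enzyme that marks it for export moved in opposite directions. Srm, spermidine synthase, measured 94.3, 146, 206 and 240.0 FPKM at day 4 and 32.7, 19.1, 18.6 and 51.4 at day 7, and fell by 2.49 ± 0.41 (log2 change ± SE, limma adjusted p = 0.00818). Sat1, which acetylates spermidine, measured 167, 193, 261 and 234 at day 4 and 417, 399, 445 and 489 at day 7, and rose by 1.05 ± 0.22 (adjusted p = 0.0274). Neither gene overlapped between the days, and both stayed called after median-of-ratios scaling. Eif5a, which carries hypusine made from spermidine, was the third called member of 13 tested, against 1.63% of all tested genes called in either direction. The median change of the 13 was -0.46, or -0.03 after median-of-ratios scaling. For all tested genes these medians were -0.25 and 0.05, so the group as a whole lay close to them.

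Nuclear transport had 2 of 14 genes called, both lower: Ran and its partner Ranbp1, which measured 245, 282, 254 and 262 FPKM at day 4 and 63.8, 37.9, 83.4 and 96.9 at day 7 and fell by 1.95 ± 0.29 (adjusted p = 0.00556). Of 11 tubulins 3 were called, all lower, with Tubb5 at -2.63 ± 0.42 (adjusted p = 0.0071) and Tuba1b at -2.15 ± 0.27 (adjusted p = 0.00259). Translation initiation factors had 5 of 35 called and genes of hnRNP and snRNP splicing particles 7 of 27, all lower. Beside each of these counts, 1.5% of all tested genes were called lower. The median changes of these 4 groups were -0.95, -1.24, -0.97 and -0.98, and after median-of-ratios scaling -0.52, -0.79, -0.55 and -0.54. That scaling left 2, 3, 1 and 1 members called, and the last pair were Eif5a and Hnrnpab. Several of these genes have near-identical pseudogenes among the calls, so their reads may be shared.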
